A study of Mus musculus with 3 samples.

Results

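The 10 listed genes of the G1 control of the cell cycle were examined in normal mouse thymocytes: the D-type cyclins Ccnd1, Ccnd2 and Ccnd3, the kinases Cdk4, Cdk6 and Cdk2, and the kinase inhibitors Cdkn1a, Cdkn1b, Cdkn2a and Cdkn2c. They were listed by name, and a probe set counted only if the platform annotation gave it that gene and no other. By this rule 9 of them had a level, out of 19938 named genes. Cdkn1a shares its probe set with another gene and is therefore given no value. The study profiled whole lymphomas and normal thymocytes of mice on Affymetrix MoGene 1.0 ST arrays, which read a transcript with many short probes, and 3 arrays of the normal group were available. They come from wild-type mice numbered 92, 103 and 106 (thymocytes are T cells still maturing in the thymus), whose genetic background was a mixture of FVB and C57BL6. No treatment, age or sex is labelled, and the lymphoma arrays were not used here, which leaves differences between mice as the only contrast. The disease-state label of all 3 samples reads T cell lymphoma, whereas their genotype and title read wild type, and each carries an RNA integrity number of 3, a low value.

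The D-type cyclins bind CDK4 and CDK6, and these complexes phosphorylate the retinoblastoma protein RB, which releases E2F transcription factors and lets a cell pass from G1 into DNA replication with CDK2. The INK4 inhibitors, encoded by Cdkn2a and Cdkn2c among others, block CDK4 and CDK6. The CIP/KIP inhibitors, encoded by Cdkn1a and Cdkn1b, bind cyclin-CDK2 complexes. In the thymus, cyclin D3 and CDK6 are needed for the burst of division that follows a productive T cell receptor beta chain, and mice that lack Cdkn1b or Cdkn2c have an enlarged thymus.

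Markers of thymocytes were read first. No lymphoma array was compared, so they do not settle the disease-state label. All 12 measured thymocyte markers lay above background, and their mean log2 level was 12.01, 11.88 and 11.93 in mice 92, 103 and 106. Rag2 and Rag1 had the widest ranges among them, 0.82 and 0.43, and were highest in mouse 92. The array of mouse 92 stood apart in markers of other cells. The mean log2 level of 12 neutrophil genes was 6.02 in mouse 92, against 7.73 in mouse 103 and 7.39 in mouse 106, and that of 10 B cell genes was 6.39, 7.50 and 7.21 in the same mice. Of these lists, 7 of 12 neutrophil genes and 6 of 10 B cell genes were above background on every array. The part of this difference in the values below was not tested. In bulk RNA, fewer cells of a type and less RNA per cell cannot be told apart.

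All 9 measured genes were above background on each array, that is, above the 95th percentile of the odorant, pheromone and trace amine receptors, whose genes belong to the nose. That threshold lay between 5.91 (mouse 92) and 6.10 (mouse 103) on the log2 scale. Of all named genes, 61.8% met this rule, so that a pass alone says little about a gene. Ccnd1 and Cdkn2a lay closest to the threshold, with smallest margins of 0.60 and 0.88, and the other 7 genes lay at least 2.81 above it. Probes differ in affinity, so the levels of different genes are not ranked against each other.

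**Figure D1:**
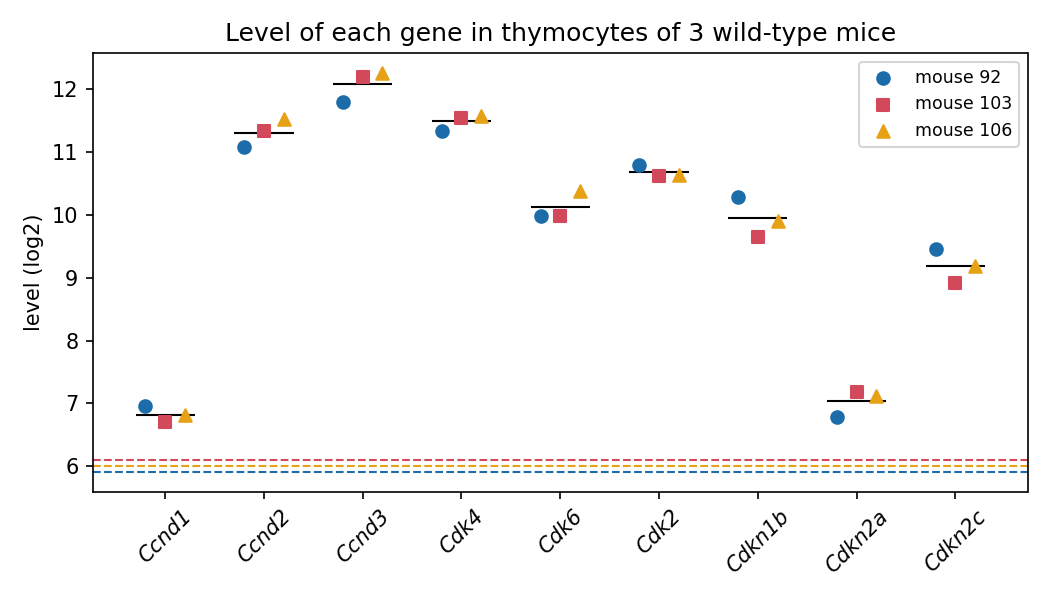
Log2 level of each of the 9 genes in the 3 mice (circles, mouse 92; squares, mouse 103; triangles, mouse 106), with the mean of the 3 as a black bar and the background threshold of each array as a dashed line in the colour of its mouse. Ccnd1 and Cdkn2a lie closest to the thresholds, with smallest margins of 0.60 and 0.88.

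Ccnd2 and Ccnd3 were lowest in mouse 92, whereas Ccnd1 was highest there. Ccnd3 had log2 levels, in mice 92, 103 and 106, of 11.79, 12.19 and 12.26, a mean of 12.08 ± 0.25 (SD, n = 3). Ccnd2, which lymphocytes use along with Ccnd3, had levels of 11.08, 11.34 and 11.52 (11.31 ± 0.22, SD, n = 3). Mouse 106 was highest for both, and the range between mice was 1.38-fold for Ccnd3 and 1.36-fold for Ccnd2. Ccnd1, the D-type cyclin of many epithelial and mesenchymal cells, had levels of 6.95, 6.70 and 6.82 (6.82 ± 0.13, SD, n = 3). With the 99th percentile of receptors as background, Ccnd1 no longer passed on every array, the only one of the 9 genes for which this was so. Thymic epithelial genes, 8 of 11 of them above background, had mean levels of 6.89, 7.12 and 6.96. Fibroblast and endothelial genes, 6 of 11 above background, had 6.57, 6.74 and 6.53. Both means were highest in mouse 103, in which Ccnd1 was lowest, and the part of such cells in the level of Ccnd1 was not tested. Krt8 (6.93, 7.74 and 7.64) and Dcn (5.39, 6.13 and 5.16) had the widest ranges of these lists. Dcn was above background on 1 array only, that of mouse 103, where the threshold was 6.10.

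The partner kinases of the D-type cyclins were highest in mouse 106. Cdk4 had log2 levels, in mice 92, 103 and 106, of 11.34, 11.55 and 11.58 (11.49 ± 0.13, SD, n = 3), the same order of mice as Ccnd2 and Ccnd3. Cdk6 had levels of 9.98, 9.99 and 10.38 (10.12 ± 0.23, SD, n = 3), so that mouse 106 stood 0.39 above mouse 103 while mice 92 and 103 differed by 0.01. Cdk2, the kinase that acts with cyclins E and A, had levels of 10.79, 10.62 and 10.63 (10.68 ± 0.10, SD, n = 3). Its range of 1.13-fold was the narrowest of the 9 genes on the deposited scale, but its SD was 0.16 after centring on the median, above 0.09 for Cdk4, and 0.04 after cyclic loess.

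The windows upstream of the kinase genes Cdk4 and Cdk6 are shown because, among the listed genes with a promoter entry, only these windows hold the E-box CACGTG, the sequence bound by MYC and related factors. They were chosen for that match after the windows were seen. Ccnd3, which had the same order of mice as Cdk4, has 0 copies in either of its windows. Any part of the E-box in the levels of these genes was not tested. The windows shown are the 250 bases before the annotated start in RefSeq on GRCm38.p6. They are printed 5′ to 3′ on the strand of the gene, with matches in capitals. The Cdk4 window is chr10:127063285-127063534 on the plus strand and the Cdk6 window chr5:3343643-3343892 on the plus strand.
Cdk4: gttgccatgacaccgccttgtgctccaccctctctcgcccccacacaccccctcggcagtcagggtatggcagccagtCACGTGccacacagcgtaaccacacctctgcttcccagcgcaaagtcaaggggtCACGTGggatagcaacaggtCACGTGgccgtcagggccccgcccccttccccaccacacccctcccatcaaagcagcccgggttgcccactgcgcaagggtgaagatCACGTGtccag
Cdk6: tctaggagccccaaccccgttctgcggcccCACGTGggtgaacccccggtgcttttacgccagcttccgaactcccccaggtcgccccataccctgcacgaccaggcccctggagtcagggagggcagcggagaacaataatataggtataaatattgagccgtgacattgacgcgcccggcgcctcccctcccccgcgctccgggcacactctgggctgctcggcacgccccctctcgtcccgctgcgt
The Cdk4 window holds 4 copies of CACGTG, which begin 172, 118, 98 and 11 bases before the start, and the Cdk6 window holds 1, which begins 220 bases before it. CACGTG reads the same on both strands. At least 1 copy was found in 6.02% of 32851 such windows, and at least 4 copies in 7 of them. These matches are letters and not measured binding.

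Cdkn1b and Cdkn2c were highest in mouse 92 and lowest in mouse 103. Cdkn1b, which encodes p27, had log2 levels, in mice 92, 103 and 106, of 10.29, 9.65 and 9.90 (9.95 ± 0.32, SD, n = 3), and its range of 1.56-fold was the widest of the 9 genes on the deposited scale. After quantile normalisation and after cyclic loess its SD was 0.27 in both cases, below that of Ccnd3 at 0.31 and 0.32. Cdkn2c, which encodes the INK4 protein p18, had levels of 9.46, 8.91 and 9.19 (9.18 ± 0.27, SD, n = 3), a range of 1.46-fold with the same order of mice. Cdkn2a, which encodes p16 and, in another reading frame, the p53 activator p19ARF, had levels of 6.79, 7.18 and 7.11 (7.03 ± 0.21, SD, n = 3) and was lowest in mouse 92. One probe set reads Cdkn2a, and its annotation holds transcripts of the gene without telling the products apart.

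Cdkn1b is the one gene of the 9 with 2 probe sets, and they had the same order of mice but different ranges. Probe set 10542310 read 11.16, 10.74 and 10.89 in mice 92, 103 and 106, a range of 0.42. Probe set 10542317 read 9.42, 8.56 and 8.90, a range of 0.87. Taken alone, the second had an unadjusted p of 0.00787 and an adjusted p of 0.574 (limma), and the first an unadjusted p of 0.163. The first alone had a narrower range than Cdkn2c, at 0.54, so that the place of Cdkn1b among the 9 genes depends on which of its probe sets is read.

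The windows upstream of the inhibitors Cdkn1b and Cdkn2a are shown for Cdkn1b as the gene with the widest range on the deposited scale and for Cdkn2a as the one inhibitor whose window held an E2F motif, since E2F factors are known to activate the p19ARF start of this gene. The Cdkn1b window is chr6:134920151-134920400 on the plus strand, and the Cdkn2a window, before the more upstream of its annotated starts, is chr4:89294620-89294869 on the minus strand, both on GRCm38.p6 from RefSeq.
Cdkn1b: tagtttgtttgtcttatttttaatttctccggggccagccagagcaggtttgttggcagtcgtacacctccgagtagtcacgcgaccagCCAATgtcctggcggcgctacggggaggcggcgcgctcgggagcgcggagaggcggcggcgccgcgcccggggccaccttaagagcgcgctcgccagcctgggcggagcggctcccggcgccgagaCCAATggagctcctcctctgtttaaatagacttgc
Cdkn2a: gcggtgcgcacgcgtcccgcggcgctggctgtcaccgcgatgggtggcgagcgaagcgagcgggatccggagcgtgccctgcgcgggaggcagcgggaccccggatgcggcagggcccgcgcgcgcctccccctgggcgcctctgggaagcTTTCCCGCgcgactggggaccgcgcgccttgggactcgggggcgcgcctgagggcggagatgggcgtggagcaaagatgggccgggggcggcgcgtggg
Capitals in the Cdkn1b window mark CCAAT, which begins 161 and 35 bases before the start and was present on either strand in 33.8% of all windows. Among the listed genes, CCAAT was also found in the Cdk2 window and in a Ccnd3 window, beginning 45 and 108 bases before their starts. Capitals in the Cdkn2a window mark TTTCCCGC, which begins 99 bases before the start. The E2F letters searched on both strands were TTTCGCGC, TTTGGCGC, TTTCCCGC and TTTGCCGC, and 1.86% of all windows held at least 1. The forkhead letters GTAAACA, in 3.17% of windows, were also searched on both strands and were found, among the listed genes, only in a Ccnd3 window. The Cdk2 window holds the E2F letters on the opposite strand, as GCGGGAAA beginning 140 bases before its start. No match overlapped another. Promoter entries were matched for 8 of the 10 listed genes.

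Whether the spread of any of these genes over the mice exceeded that of genes with a similar level was tested over 13316 genes above background on at least 1 array. None of the 9 did (limma, trended prior, 0 of 9 at a Benjamini-Hochberg adjusted p under 0.05), where 0.225% of all tested genes did. The smallest adjusted p was 0.871, for Cdkn1b. Of the 9, 1 gene had an unadjusted limma p under 0.05, beside 4.85% of all tested genes. It was Cdkn1b, with an unadjusted p-value of 0.0291. Ccnd3 and Cdkn2c followed with unadjusted p-values of 0.0677 and 0.0733 in the same limma fit. The genes that passed this test had ranges of at least 1.45 on the log2 scale, or 2.73-fold, so that differences as small as those of the 9 genes, 0.17 to 0.64, lay below any the test called with 3 arrays. The test does not show that the genes were equal in the mice.

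As a description, the 9 genes had a median range of 0.40 and a median SD of 0.22 on the log2 scale, beside 0.25 and 0.13 over all tested genes. The variance of 6 of the 9 genes exceeded the value that limma's trend gives for their level, beside 39.2% of tested genes. Mouse 92 held the highest or the lowest level in 9 of 9 genes, beside 72.5% of tested genes. It was lowest for Ccnd2, Ccnd3, Cdk4, Cdk6 and Cdkn2a and highest for Ccnd1, Cdk2, Cdkn1b and Cdkn2c. Without mouse 92, the remaining mice differed by 0.39 in Cdk6, by 0.27 in Cdkn2c, by 0.25 in Cdkn1b and by 0.07 in Ccnd3 (mouse 106 minus mouse 103, log2), and 0 of 9 genes passed the limma test. The end held by mouse 92 did not change for 8 of the genes under 3 other scalings of the arrays. Cdk6 was the exception, with mouse 103 lowest after centring on the median. Cdk2 was lowest in mouse 106 in place of mouse 103 after quantile normalisation and cyclic loess, and Cdkn2a was highest in mouse 106 in place of mouse 103 under all 3 scalings.

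**Figure D2:**
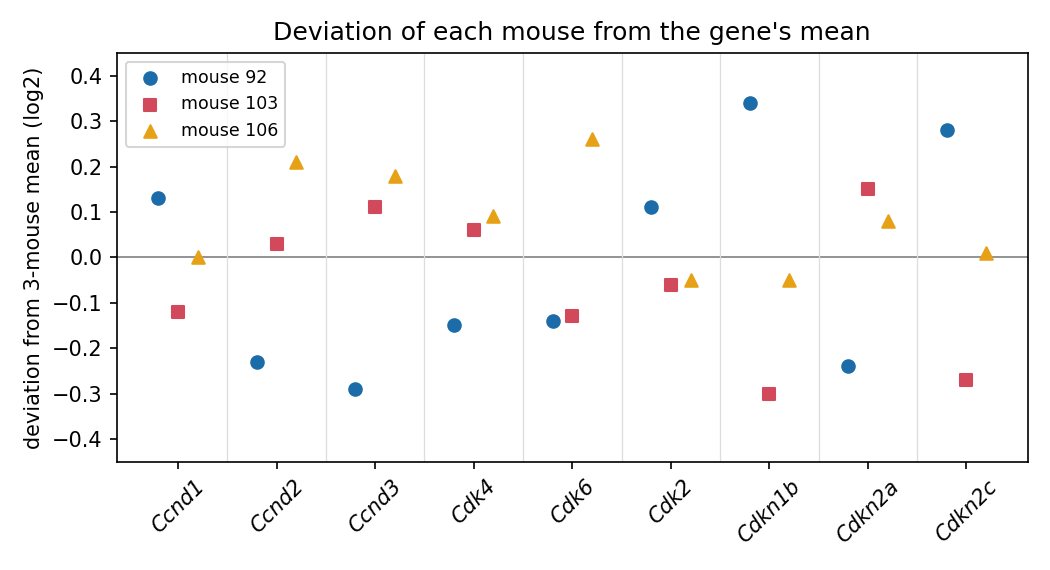
Deviation of each mouse from the 3-mouse mean of each gene, on the log2 scale (circles, mouse 92; squares, mouse 103; triangles, mouse 106). Mouse 92 lies below the others for Ccnd2, Ccnd3, Cdk4, Cdk6 and Cdkn2a and above them for Ccnd1, Cdk2, Cdkn1b and Cdkn2c.

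Many genes shared these patterns, as only 3 arrays define them. Likeness was measured as the Euclidean distance between deviations from the 3-mouse mean, over 12314 other genes above background on every array. The genes nearest to Cdkn1b were D930016D06Rik, Zfp715 and Micu3, at distances of 0.003, 0.014 and 0.017. Those nearest to Cdkn2c were Eif2a, Rab18 and Tasor2 (0.005, 0.011 and 0.017), and those nearest to Ccnd3 were Cox6b1, Pym1 and Kdm5c (0.005, 0.010 and 0.011). Within a distance of 0.1 there were 89 genes for Cdkn1b, 195 for Cdkn2c and 180 for Ccnd3.

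The RB family, which the cyclin D kinases target, was listed with the E2F genes and genes that act with them. All 17 of 17 were above background, and 0 passed the limma test of variation, with 3 at an unadjusted p under 0.05. The pocket protein genes Rb1 and Rbl2 were highest in mouse 92 and lowest in mouse 103, as Cdkn1b and Cdkn2c were. Rb1 had log2 levels, in mice 92, 103 and 106, of 10.61, 10.16 and 10.52, and Rbl2 had 10.25, 9.73 and 10.08. Rbl1, which encodes p107, had 10.17, 9.89 and 10.17. Among the activating factors, E2f1 had 7.83, 8.16 and 8.48 and E2f2 had 9.91, 10.05 and 10.30, both with the order of mice of Ccnd2, Ccnd3 and Cdk4. E2f3 had 7.69, 7.42 and 7.63. E2f8, an atypical repressor, had the widest range of the list, with levels of 8.92, 8.63 and 9.42 (unadjusted p = 0.00997, limma), and its relative E2f7 had a range of 0.24. Mybl2, an E2F target that drives later cell cycle genes, averaged 8.79 ± 0.32 (SD, n = 3) and was lowest in mouse 92, at 8.42. The other members, E2f4, E2f5, E2f6, the dimer partners Tfdp1 and Tfdp2, and the MuvB genes Lin9, Lin52 and Lin54, had ranges between 0.16 and 0.40.

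The cyclins and inhibitors that act beside the 9 genes were above background in 8 of 9 cases, and 0 of the 8 tested passed in limma, with 1 at an unadjusted p under 0.05. Cyclins E1 and E2 activate CDK2. Ccne1 had log2 levels, in mice 92, 103 and 106, of 8.94, 8.97 and 9.25, and Ccne2 had 8.01, 7.86 and 8.03. Ccna2, the cyclin of S phase, had 10.50, 10.47 and 10.77, and Cdk1, the mitotic kinase, had 9.78, 9.73 and 9.90. Ccna1, known from the germ line, was below background on all arrays, at 5.13, 5.23 and 5.20. The INK4 gene Cdkn2b, the genomic neighbour of Cdkn2a, had 6.18, 6.82 and 6.96 (unadjusted p = 0.0175, limma), and like Cdkn2a it was lowest in mouse 92 and close to the threshold. Cdkn2d, which encodes the INK4 protein p19, had 10.23, 10.22 and 10.02, Cdkn1c, which encodes p57, had 7.12, 7.27 and 6.95, and Cdk3 had 6.77, 6.83 and 6.72.

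Genes that activate CDKs or remove cyclins and inhibitors were likewise above background throughout, 9 of 9 and 21 of 21 measured, and 0 of either list passed in limma, with 1 of each at an unadjusted p under 0.05. Among the activators, Cdk7, the kinase that phosphorylates the CDKs, had levels of 8.26, 7.66 and 8.22 in mice 92, 103 and 106. The kinase chaperone gene Cdc37 had 10.20, 10.59 and 10.16, the inhibitory kinase gene Wee1 9.08, 9.15 and 9.46, and Mnat1, a partner of CDK7, 7.87, 7.80 and 7.70. In the turnover list, Skp1, a subunit of the SCF ubiquitin ligases, had 10.52, 9.95 and 10.46, Cul4b 9.64, 9.16 and 9.21, and Cks2 8.55, 8.19 and 8.13. The receptor that brings p27 to the SCF ligase, Skp2, had a range of 0.12, and Fbxo31 had the smallest range, 0.08.

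Of the regulators known to act on these genes, 19 of 19 measured were above background and 0 passed in limma, with 1 at an unadjusted p under 0.05. Notch1, whose signal raises Ccnd3 and Cdk6 in immature T cells, had log2 levels, in mice 92, 103 and 106, of 10.23, 10.63 and 10.87, and Notch3 had 8.14, 8.45 and 8.73. Both had the order of mice of Ccnd2, Ccnd3 and Cdk4, and of Cdk6 on the deposited scale. The part of Notch1 or of any other regulator in this list in the levels of the 9 genes was not tested. Mycn had 6.27, 6.78 and 6.54, and Stat5b had the smallest range, 0.06. Foxo1 and Foxo3, whose products activate Cdkn1b, had ranges of 0.21 and 0.22 with Foxo1 lowest in mouse 103 and Foxo3 lowest in mouse 92.

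**Figure D3:**
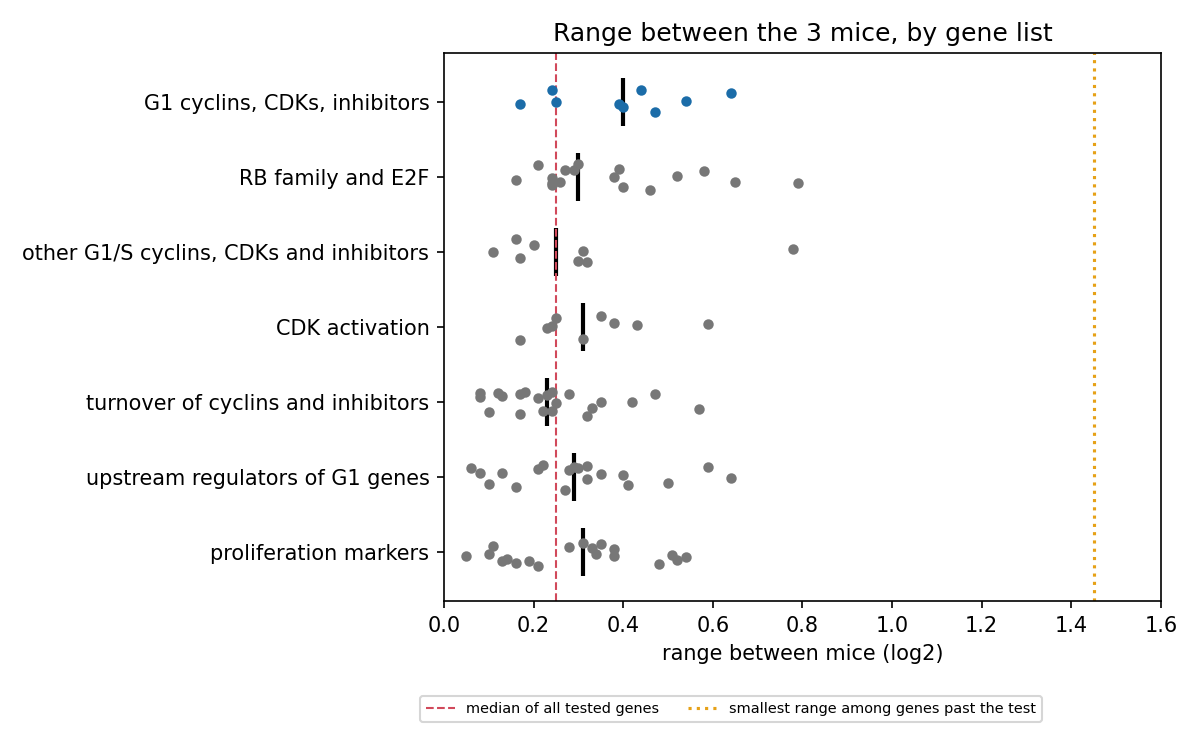
Range between the highest and the lowest of the 3 mice on the log2 scale, with 1 point per tested gene, for the 9 genes (blue) and 6 related lists (grey). Black bars are list medians, the dashed line is the median of all tested genes, 0.25, and the dotted line is the smallest range among genes that passed the limma test, 1.45.

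Proliferation markers were above background in 19 of 19 cases, and 0 passed in limma, with 1 at an unadjusted p under 0.05. Their mean log2 level was 10.06, 10.13 and 10.25 in mice 92, 103 and 106, and 13 of the 19 were highest in mouse 106, as Ccnd2, Ccnd3, Cdk4 and Cdk6 were. Over all tested genes, 23.6% were highest in mouse 106. Mki67 had levels of 11.05, 10.86 and 11.38, the licensing gene Mcm5 had 9.80, 10.27 and 10.34, and Cdc6 had 8.25, 8.67 and 8.76. Mcm4 had the smallest range, 0.05. Markers of double-negative and progenitor thymocytes, 9 of 9 above background, were lowest in mouse 92 in 8 cases, beside 35.1% of all tested genes. The exception was Kit, with 6.80, 6.86 and 6.73 in mice 92, 103 and 106, a range of 0.13. Of these 9 markers, 7 were highest in mouse 103, beside 39.1% of all tested genes. The mean level of the 9 markers was 6.99, 7.59 and 7.52, and 0 passed in limma with 4 at an unadjusted p under 0.05. The widest ranges in that list were those of Il2ra (7.77, 8.49 and 8.79) and Dtx1 (8.26, 9.17 and 9.22), the 2 genes of the list that were highest in mouse 106. The B cell, neutrophil, erythroid and macrophage lists also had their lowest mean in mouse 92. Which cells the transcripts of the double-negative and progenitor list came from was not tested. The part of double-negative and progenitor cells in the levels of Ccnd2, Ccnd3, Cdk4, Cdk6 and Cdkn2a, which were also lowest in mouse 92, was not tested.

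**Figure D4:**
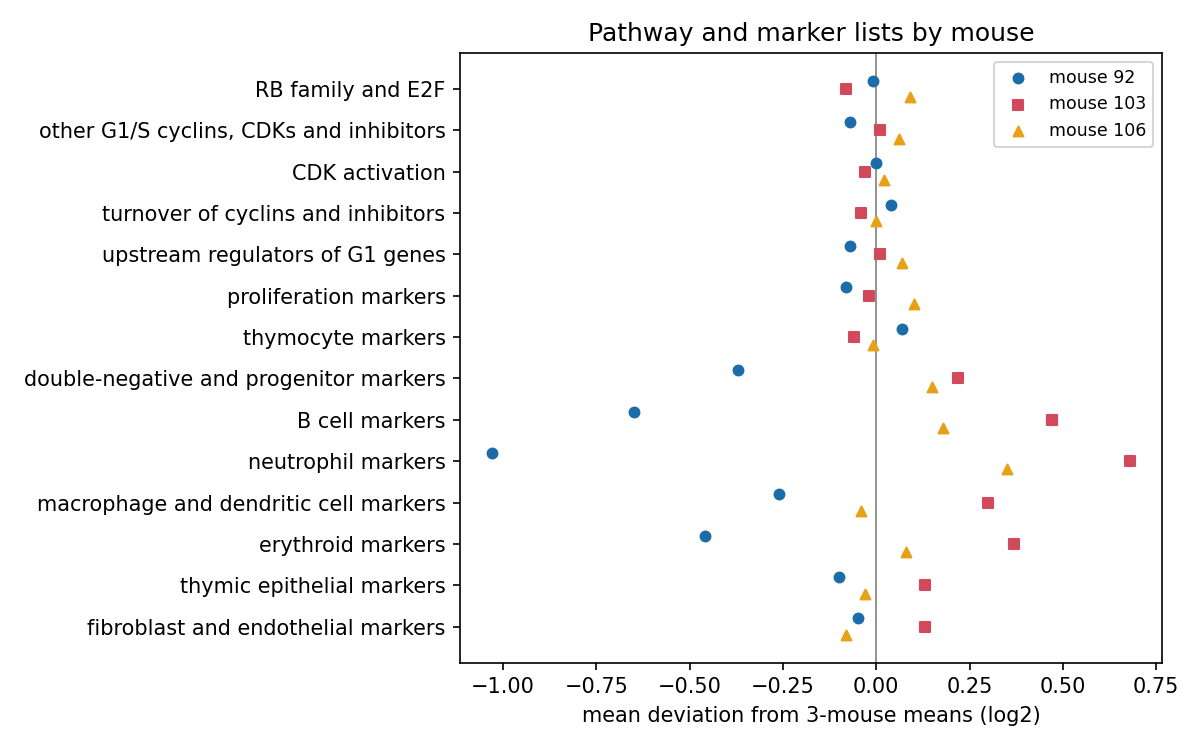
Mean deviation of each list's measured genes from their 3-mouse means, on the log2 scale, in mouse 92 (circles), mouse 103 (squares) and mouse 106 (triangles). Pathway, proliferation and thymocyte lists lie within 0.10 of 0, whereas neutrophil markers lie at -1.03 in mouse 92 and B cell markers at -0.65.

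Markers of blood cells other than thymocytes had wider ranges than the 9 genes, with median ranges of 1.87 for neutrophil, 1.09 for B cell, 1.14 for erythroid and 0.48 for macrophage and dendritic cell genes, beside 0.40 for the 9 genes. In the neutrophil list 6 of 11 tested genes passed in limma, the widest ranges being those of Lcn2 (6.93, 9.72 and 9.45 in mice 92, 103 and 106) and Ngp (6.88, 9.63 and 9.61). In the B cell list 1 of 9 tested genes, Cr2, passed in limma. Cr2 (5.74, 7.32 and 7.01) and Bank1 (5.84, 7.23 and 6.83) had the widest ranges. Some neutrophil and B cell genes, Cr2 and Bank1 among them, were below background in mouse 92. Such genes entered the test only through mice where they were high. The only B cell call, Cr2, is of this kind, and the neutrophil calls and the median ranges of these 2 lists rest partly on the filter. Of 5 tested erythroid genes 1 passed, Alas2 (8.18, 10.14 and 10.03), and the next widest range was that of Car1 (5.94, 7.11 and 6.34). Of 9 tested macrophage and dendritic cell genes 0 passed, with 4 at an unadjusted p under 0.05 in limma, and Lyz2 (9.36, 10.67 and 10.02) and C1qc (7.70, 8.32 and 7.35) had the widest ranges among those tested. All of these lists had their lowest mean in mouse 92 and their highest in mouse 103, an order that of the 9 genes only Cdkn2a followed on the deposited scale. The receptor background had this order too, with its 95th percentile lowest in mouse 92 (5.91) and highest in mouse 103 (6.10), and its 99th percentile likewise. Cdkn2a lay a little above that 99th percentile, at 6.79 against 6.68 in mouse 92 and 7.11 against 6.85 in mouse 106. The part of these blood cells, or of the background, in the level of Cdkn2a was not tested.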

How the data were processed

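Total RNA of thymocytes was extracted with Trizol and labelled with biotin, per the labels' protocols. The authors deposited log2 levels of 35557 probe sets on 3 arrays, made with Affymetrix Expression Console, per the submitters' processing notes. Its version, background correction and normalisation have no statement in the labels, and the log2 scale was inferred from values of 1.76 to 14.96. Having only 3 arrays limits precision.

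Of the probe sets, 21789 had 1 gene symbol in the platform annotation, 1621 had several and 12147 were not listed. Probe sets of a gene were averaged, and 21698 matched the RefSeq table of GRCm38.p6, with 0 symbols changed. Background came from 1203 receptor genes. The limma package (3.58.1, under R 4.3.3) served for the test of variation: an intercept fit, a trended prior that was not robust (10.4 prior degrees of freedom), an upper-tail F ratio of each variance over its prior, and Benjamini-Hochberg adjustment over all tested genes. The test was checked on simulated data. Nothing says how the 3 samples were taken beyond the mouse numbers, so the p-values cover only the spread of these samples, which may be technical. Motif letters were chosen after the promoter windows were seen. Named genes were the 9 measured members, all genes of the RB and E2F list and of the list of other G1/S genes, from the remaining pathway lists and the proliferation list the 3 genes of widest and the 1 of smallest range, and from the cell marker lists only genes of widest range; Skp2, Foxo1 and Foxo3 were added for their known roles, with values seen. The members and lists were chosen with earlier results of these data known.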

Additional observations from a re-analysis of the deposited data

How the results depend on the processing

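The 9 genes stayed without a call under a robust prior, a prior without trend, quantile normalisation, centring on the median, cyclic loess, no filter, a stricter filter, single probe sets and without each mouse in turn. Over these alternatives their smallest adjusted p was 0.306, for Cdkn1b without mouse 106. The number of all tested genes that passed limma was 30. It was 18 with arrays centred on their medians, 16 after cyclic loess, 13 after quantile normalisation and 44 with the robust prior. It was 58 without mouse 92, 51 without mouse 103 and 84 without mouse 106. The prior degrees of freedom, which enter the F test, changed as well. They were 10.4 in the main fit, 8.75 after centring, and 7.06 after cyclic loess and after quantile normalisation. Without mouse 103 they were 21.3, and without mouse 92 or mouse 106 they were infinite. The cause of the changed counts was not tested. With the 99th percentile of receptors as background, 8 of the 9 genes were above background on every array. The median SD of the 9 genes lay between 0.20 and 0.24 over the scalings, although single genes changed places: Cdk2 had 0.10 on the deposited scale, 0.16 with median-centred arrays and 0.04 with cyclic loess. No paired analysis was possible because the labels give a single group.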
